A study of Equus caballus with 4 samples.

Results

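The genes described here are 10 members of the interleukin system, namely *il15* and its receptor chain *il15ra*, *il7*, the type 2 cytokines *il5* and *il13* with the receptor chains *il4r* and *il13ra1*, *il10*, and the subunits *il23a* and *il12a*. Probes were taken by the gene symbol that the array files give. They are 10 of 12418 named genes on the array, and were read by 28 of its 43603 probes, on 36 spots of each array. The symbol was exact for 27 probes, and the single *il13* probe, which the files spell with a hyphen, was matched through its RefSeq accession. Gene symbols are in italics and lowercase in the text and in capitals in the plots.

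Equine satellite cells, the muscle precursor cells isolated here from m. semitendinosus of young stallions, were cultured until day 3 of differentiation. Cells of the HMB-treated group had received 50 µM β-hydroxy-β-methylbutyrate (HMB), a leucine metabolite, for 24 h, and 3 mM hydrogen peroxide (H2O2) during the last 1 h. The control group had received the same H2O2 exposure without HMB, so the comparison asks what HMB changes in cells that were all under oxidative stress, and no culture without H2O2 was analysed here. Each of 4 two-colour arrays carried RNA of the HMB-treated group labelled with Cy5 and RNA of the control labelled with Cy3, and gave 1 log2 ratio per spot, positive where the HMB-treated group was higher. Dyes were not swapped, so treatment and dye cannot be told apart. The labels call the arrays biological replicates, but the methods state that 1 culture was selected among those of all horses, so the spread between arrays need not include differences between animals. In the labels the control carries 1 and the same number throughout, and they do not show whether the control RNA came from 1 sample or several. All arrays lay on 1 slide.

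As background, IL-15 and IL-7 are growth and survival factors for lymphocytes that signal through the common gamma chain, and skeletal muscle cells make both of them as myokines. IL-15 is presented to neighbouring cells by IL-15 receptor alpha. IL-5 and IL-13 are made mainly by type 2 helper T cells and innate lymphoid cells, and their genes are neighbours in a conserved cytokine cluster. The chains encoded by *il4r* and *il13ra1* pair on non-lymphoid cells into the receptor that responds to both IL-4 and IL-13. IL-10 limits inflammation, while the products of *il23a* and *il12a* each pair with the subunit encoded by *il12b* to form IL-23 and IL-12.

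The array reads each transcript through probes of 60 bases, and these are shown for the 6 members that passed the test, since the results rest on what they hybridise to. Positions refer to EquCab1, the build in the file headers. The probes of *il15*, *il7*, *il23a* and 1 of *il13ra1* span more genome than their own length and so lie across an intron: the *il15* probe covers 2813 bases at chr2:75361664-75364476 on the minus strand, and the *il23a* probe 283 bases at chrUn:195515692-195515974 on the plus strand. The *il15ra* probe lies at chr29:26882846-26882905 on the plus strand. Both *il13ra1* probes are on the minus strand and abut, at chrUn:18018481-18018540 and chrUn:18018541-18031141. The *il13* probe (chr14:42187239-42187298, minus strand) and the *il5* probes are 101882 bases apart. The 5 *il5* probes are tiled in steps of 1 base on the plus strand, of which the outermost (chr14:42289181-42289240 and chr14:42289185-42289244) are shown with the 56 bases that all 5 share in capitals. They are therefore repeated measurements of 1 stretch of transcript and not independent probes. The files do not say in which exon or part of a transcript a probe lies.
IL15: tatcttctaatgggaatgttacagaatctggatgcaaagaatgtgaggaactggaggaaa
IL15RA: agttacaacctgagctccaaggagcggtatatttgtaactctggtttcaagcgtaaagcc
IL13RA1, first probe: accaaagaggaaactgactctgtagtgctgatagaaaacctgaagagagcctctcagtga
IL13RA1, second probe: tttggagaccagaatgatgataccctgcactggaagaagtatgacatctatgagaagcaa
IL23A: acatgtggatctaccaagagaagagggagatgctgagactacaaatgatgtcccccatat
IL13: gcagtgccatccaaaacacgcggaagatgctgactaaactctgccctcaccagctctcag
IL5, leftmost probe: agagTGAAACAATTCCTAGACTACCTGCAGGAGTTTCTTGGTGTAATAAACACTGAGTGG
IL5, rightmost probe: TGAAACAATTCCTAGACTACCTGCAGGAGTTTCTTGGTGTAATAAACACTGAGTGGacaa

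A probe was tested if at least 1 channel was well above background on all 4 arrays, and was called at an adjusted p of 0.05 or less and a fold change (FC) of 1.3 or more in limma's moderated test, adjusted by Benjamini-Hochberg across the 24670 probes tested. Well above background is a mark that the scanner software gives a spot. In each channel 55.2 to 61.8% of spots carried it. Of the 28 member probes, 17 were tested and 11 were called, against 28.6% of all tested probes. Higher in the HMB-treated group were 5 member probes (*il15*, *il15ra*, *il23a* and both of *il13ra1*), against 12.1% called higher over all tested probes. Lower were 6 member probes (5 of *il5* and that of *il13*), against 16.4% called lower. With both channels required to be well above background on all arrays, *il15ra*, *il13* and *il12a* dropped out, and 9 of 14 member probes (4 higher, 5 lower) and 5870 of 22653 probes in all were called. By gene, 4 members were called higher and 2 lower. *Il15ra* and *il13* count here, each tested only through the channel where it was brighter. With both channels required, *il15*, *il13ra1* and *il23a* remained higher and *il5* lower. Of 7767 genes on the array, each read by its brightest tested probe, 10.2% were called higher and 17.2% lower. *Il4r* and *il12a* were tested but not called, and *il7* and *il10* had no testable probe. The median log2 ratio was -0.05 over the tested member probes and -0.07 over all tested probes. In bulk RNA, fewer cells of a type and less RNA per cell cannot be told apart.

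**Figure D1:**
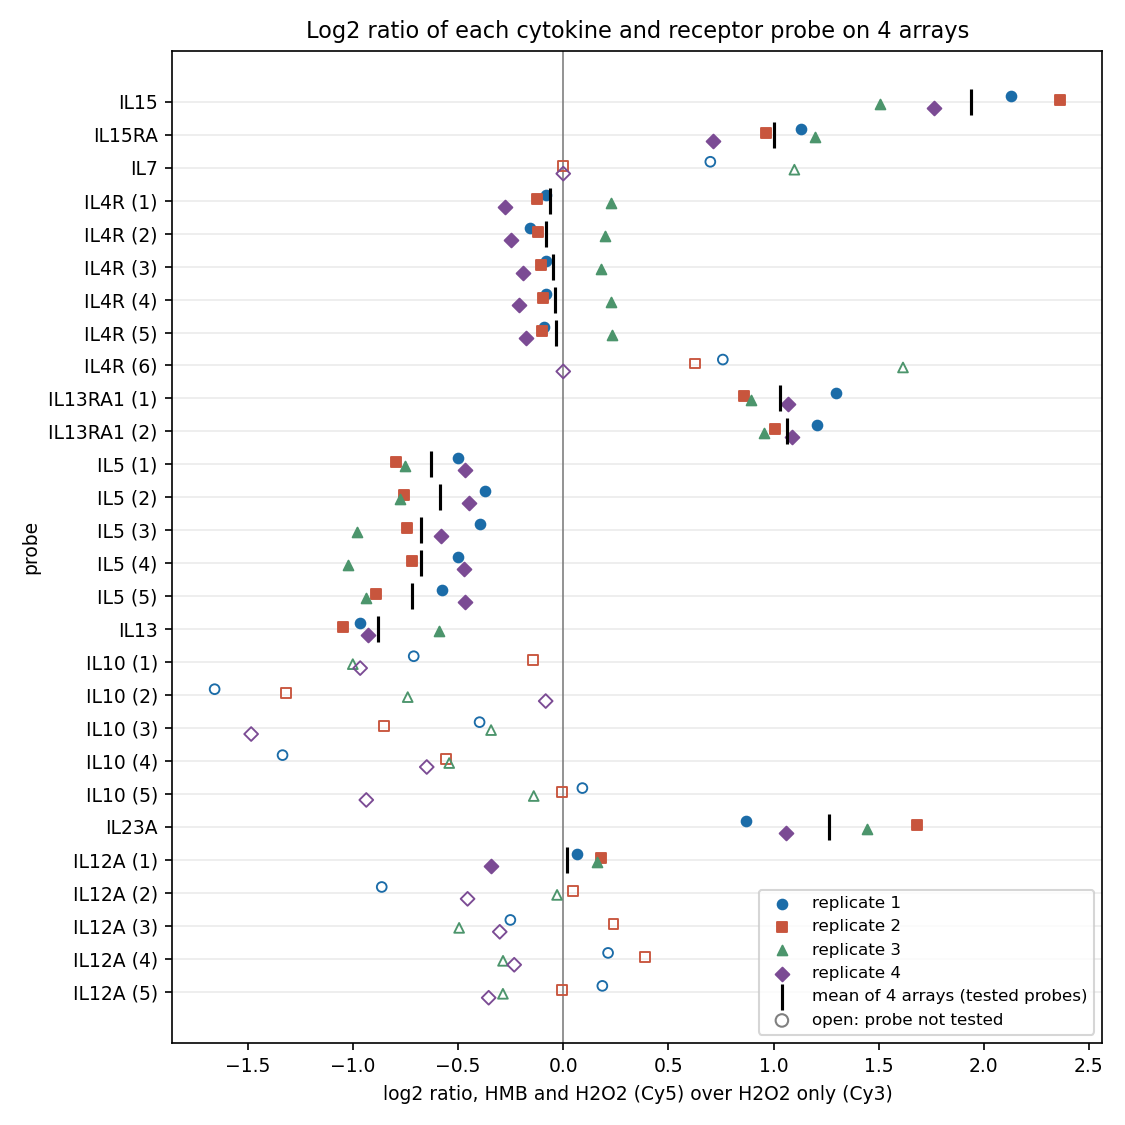
Log2 ratio of the HMB-treated group over the control (x axis) for each of the 28 probes (y axis), with 1 point per array and a bar at the mean of tested probes. All 4 points lie above 0 for IL15, IL15RA, IL13RA1 and IL23A and below 0 for IL5 and IL13, while the IL4R probes 1 to 5 and the tested IL12A probe straddle 0.

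The cells carried markers of muscle, and markers of other cell types moved with the treatment. *Myod1*, *myog* and *des* were well above background in both channels on all 4 arrays. Of 8 tested muscle markers, 6 fell, from -0.93 ± 0.22 for *ckm* to -1.49 ± 0.34 for *myf5* (log2 ratio, SD, n = 4). Over all tested genes 17.2% were called lower and 10.2% higher. The summed signal of the 8 muscle markers was 64754 to 102980 in the HMB-treated channel and 169656 to 191451 in the control channel. Such sums add signals of different probes, which are not comparable, and weigh the brightest probes most. Of 5 tested fibroblast markers, 4 rose (*pdgfra*, *dcn*, *thy1* and *lum*, from 0.42 to 1.49), although the methods removed cells that adhered early to the dish as fibroblasts. The other, *col1a2*, was not called, at -0.23 ± 0.34. The summed fibroblast signal overlapped between the channels (274003 to 426655 against 283644 to 344940), and the HMB-treated sum was the higher on 1 of 4 arrays. Of 12 leukocyte markers followed on the array, 3 were tested. *Cd68*, a macrophage marker that fibroblasts can also carry, rose by a log2 ratio of 0.88 ± 0.20, while *cd3d* (-0.04 ± 0.17) and *ms4a1* (-0.16 ± 0.17) were not called. The latter, a T cell and a B cell marker, were well above background in both channels on all 4 arrays by their brightest tested probe. Testable were 5 of 5 *cd3d* probes and 1 of 2 *ms4a1* probes. The other T cell markers *cd3e*, *cd3g*, *cd4* and *cd8a* and the natural killer cell marker *ncr1* were not well above background in either channel on any array. The same held for the macrophage markers *aif1* and *itgam* and the B cell marker *cd79b*. *Csf1r*, another macrophage marker, was well above background in some channel on 1 array and was not tested. The 3 tested leukocyte markers summed to 337 to 574 in the HMB-treated channel and 322 to 522 in the control channel. The HMB-treated sum was the higher on 4 of 4 arrays, by the least on array 1, at 388 against 382. None of the 5 endothelial markers on the array had a testable probe. The part of these marker changes in the cytokine results was not tested.

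On the deposited ratios, *il15* rose most among the members. With normexp background correction the first *il13ra1* probe, at 0.89, was slightly above it. Its normalised signal in the HMB-treated channel was 196, 193, 220 and 176 on arrays 1 to 4, and in the control channel 44.8, 37.5, 77.4 and 52.1, so every HMB-treated value exceeded every control value. Both channels were well above background on all 4 arrays. The log2 ratios were 2.13, 2.36, 1.50 and 1.76, and array 3 had the smallest ratio and the highest control signal. The mean of 1.94 had a 95% confidence interval of 1.59 to 2.29 (adjusted p = 1.73e-04). It was called in all 18 alternative analyses, although the log2 ratio was 0.87 with normexp background correction and 1.104 without background correction.

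*Il15ra*, the chain that holds IL-15 at the cell surface, rose as well, with an FC of 2.00. Its signals were low, at 59.2, 54.9, 73.8 and 37.8 in the HMB-treated channel and 27.0, 28.1, 32.2 and 23.1 in the control channel, where it was well above background on 3 of 4 arrays. The probe was thus tested through its HMB-treated channel alone, and its FC rests on control signals near background. The channels did not overlap. The log2 ratios of 1.13, 0.96, 1.20 and 0.71 gave a mean of 1.00 ± 0.22 (SD, n = 4, adjusted p = 4.37e-04). With normexp background correction the log2 ratio was 0.22 (adjusted p = 0.0480) and without background correction 0.37 (adjusted p = 0.00198), both below the FC threshold. The rise of *il15* exceeded that of *il15ra* on 4 of 4 arrays by 0.94 ± 0.46 on the log2 scale (exact sign-flip permutation test, two-sided, p = 0.125, adjusted p = 0.167 over 4 pairs of partner genes). With 4 arrays, 0.125 is the smallest p this test can give, so it could not call any pair of genes different.

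*Il7* was not measurable. Its single probe (chr9:8627441-8629813, plus strand) gave 6.28 to 10.9 in the HMB-treated channel and 4.18 to 5.07 in the control channel and was not well above background on any array in either. Its ratio was set to 0 on arrays 2 and 4 and was 0.70 and 1.099 on arrays 1 and 3. These values have no order that can be read, and the probe for its receptor *il7r* was at background in both channels on all arrays too.

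**Figure D2:**
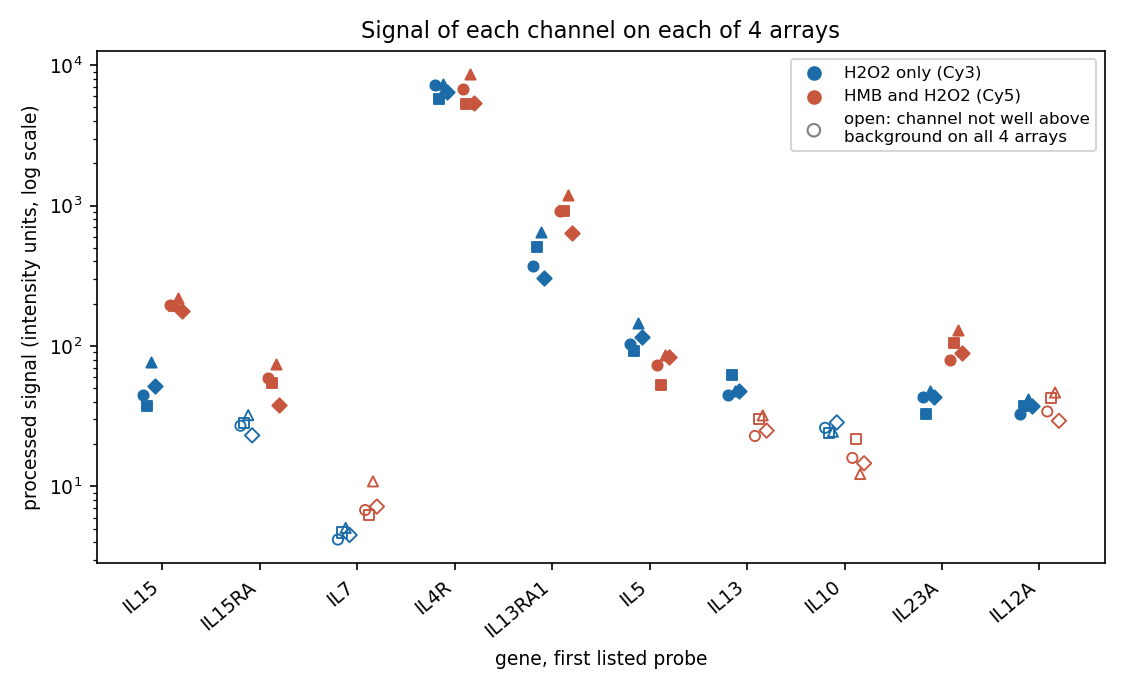
Normalised signal (intensity units, log axis) of the first listed probe of each gene, with Cy3 for the control and Cy5 for the HMB-treated group on each of 4 arrays and marker shapes for arrays 1 to 4 as circle, square, triangle and diamond. Signals of different probes are not comparable. The channels separate for IL15 (176 to 220 against 37.5 to 77.4) and IL23A and overlap for IL4R and IL12A.

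Both type 2 cytokines fell, from low control signals. The *il5* probe with 5 spots per array read 72.9, 53.0, 86.1 and 83.2 in the HMB-treated channel and 103, 92.0, 145 and 115 in the control channel. No HMB-treated value reached the lowest control value, and both channels were well above background on all arrays. Its log2 ratios were -0.50, -0.80, -0.75 and -0.47, with a mean of -0.63 ± 0.17 (SD, n = 4, adjusted p = 0.00158). The spots of this probe within an array had an SD of 0.08 to 0.25, about as wide as the spread between arrays. The other *il5* probes, each on 1 spot, gave means of -0.59 to -0.72 (adjusted p from 0.00192 to 0.00326), and all 5 were below 0 on 4 of 4 arrays. For every *il5* probe the log2 ratio came to between -0.21 and -0.26 with normexp and between -0.28 and -0.37 without background correction, below the FC threshold. When limma's treat asked for an FC above 1.3, their adjusted p was 0.0522 to 0.195.

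The *il13* probe read 22.9, 30.3, 32.0 and 24.96 in the HMB-treated channel, where it was well above background on 2 of 4 arrays, and 44.7, 62.6, 48.2 and 47.4 in the control channel, well above background on all. The probe was thus tested through its control channel alone, and its FC rests on HMB-treated signals near background. The channels did not overlap. The log2 ratios of -0.97, -1.05, -0.59 and -0.93 gave a mean of -0.88 ± 0.20 (FC 1.84, adjusted p = 6.11e-04). The log2 ratio was -0.19 with normexp and -0.25 without background correction, below the FC threshold in both. On the arrays *il5* and *il13* differed in log2 ratio by 0.20 ± 0.43, with *il13* lower on 3 of 4 (exact sign-flip permutation test, two-sided, p = 0.375, adjusted p = 0.375), where *il5* was read by its brightest probe. *Il4*, from the same cluster, had 22 probes and no testable one.

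Of the 2 chains of the shared IL-4 and IL-13 receptor, *il13ra1* was called higher and *il4r* was not called. *Il13ra1*, the chain that binds IL-13, rose by an FC of 2.04 on its first probe and 2.09 on its second. The second probe read 729, 816, 1060 and 591 in the HMB-treated channel and 315, 406, 547 and 278 in the control channel, with no overlap. Its log2 ratios were 1.21, 1.01, 0.95 and 1.09, the narrowest spread among the members (1.07 ± 0.11, SD, n = 4, adjusted p = 9.8e-05). The first probe had ratios of 1.29, 0.86, 0.89 and 1.07 (1.03 ± 0.20, adjusted p = 3.21e-04), and its channels overlapped, because the HMB-treated signal of array 4 (639) was below the control signal of array 3 (643). The pair of probes covers adjoining sequence, so they are not independent. Both were called in all 18 alternative analyses, with log2 ratios of 0.54 and 0.58 after scaling to spike-in RNA.

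*Il4r*, the signalling chain that binds IL-4, was not called. Its 5 overlapping probes (chr13:8161633-8161696, minus strand) had signals of 5280 to 9250 in the HMB-treated channel and 5762 to 7872 in the control channel, and the channels overlapped. Each probe had a ratio below 0 on 3 arrays and above 0 on array 3, with means of -0.08 to -0.03 (adjusted p from 0.478 to 0.766). The widest of the 95% intervals of these probes ran from -0.29 to 0.16, so a change of the size seen for *il13ra1* lay outside it on the deposited scale. These signs turned under several settings, and the probes were called lower, at -0.57 to -0.52, after scaling to spike-in RNA. *Il13ra1* exceeded *il4r* by 1.06 ± 0.32 in log2 ratio on 4 of 4 arrays, each read by its brightest probe (exact sign-flip permutation test, two-sided, p = 0.125, adjusted p = 0.167). A sixth *il4r* probe, at chr13:8169685-8169744 on the minus strand and tied in the files to a different transcript record, was at background in both channels on all arrays and was not tested.

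*Il10* was at the limit of detection. Its 5 overlapping probes (chr5:2996302-2996366, minus strand) read 5.71 to 65.1 in the HMB-treated channel and 17.1 to 71.8 in the control channel. They were well above background on 0 to 3 arrays in the HMB-treated channel and 0 to 2 in the control channel, so none was tested. Their mean ratios ran from -0.95 to -0.25 and were below 0 on 4 of 4 arrays for 4 probes and on 3 of 4 for the other. Probes that share nearly all their bases thus gave mean decreases from FC 1.19 to FC 1.93, and without the filter on dim probes none of them passed (adjusted p from 0.0582 to 0.493).

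Of the 2 subunits that pair with the *il12b* product, *il23a* rose and *il12a* was not called. *Il23a* read 79.3, 105, 130 and 89.7 in the HMB-treated channel and 43.4, 32.7, 47.7 and 43.1 in the control channel, well above background in both on all arrays and without overlap. Its log2 ratios of 0.87, 1.68, 1.44 and 1.06 gave a mean of 1.26 ± 0.37 (FC 2.40, adjusted p = 8.20e-04). With normexp the log2 ratio was 0.38 (adjusted p = 0.0205), just below the FC threshold.

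*Il12a* was read by 5 overlapping probes (chr19:963234-963297, minus strand), of which the one with 5 spots per array was tested. It read 34.2, 42.5, 46.6 and 29.3 in the HMB-treated channel and 32.7, 37.5, 41.7 and 37.2 in the control channel, and the channels overlapped. The ratios of 0.06, 0.18, 0.16 and -0.34 averaged 0.02 ± 0.24 (adjusted p = 0.910), with a 95% interval of -0.23 to 0.26. The spots of the probe had an SD of 0.16 to 0.27 within an array. The other 4 probes were well above background on 1 to 3 arrays in the HMB-treated channel and 2 to 3 in the control channel. Their means were -0.33 to 0.02. The difference between *il23a* and *il12a* was 1.25 ± 0.31 in log2 ratio, in the same direction on 4 of 4 arrays (exact sign-flip permutation test, two-sided, p = 0.125, adjusted p = 0.167). *Il12b*, the shared partner, had 1 probe, which was well above background in some channel on 1 array and was not tested.

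**Figure D3:**
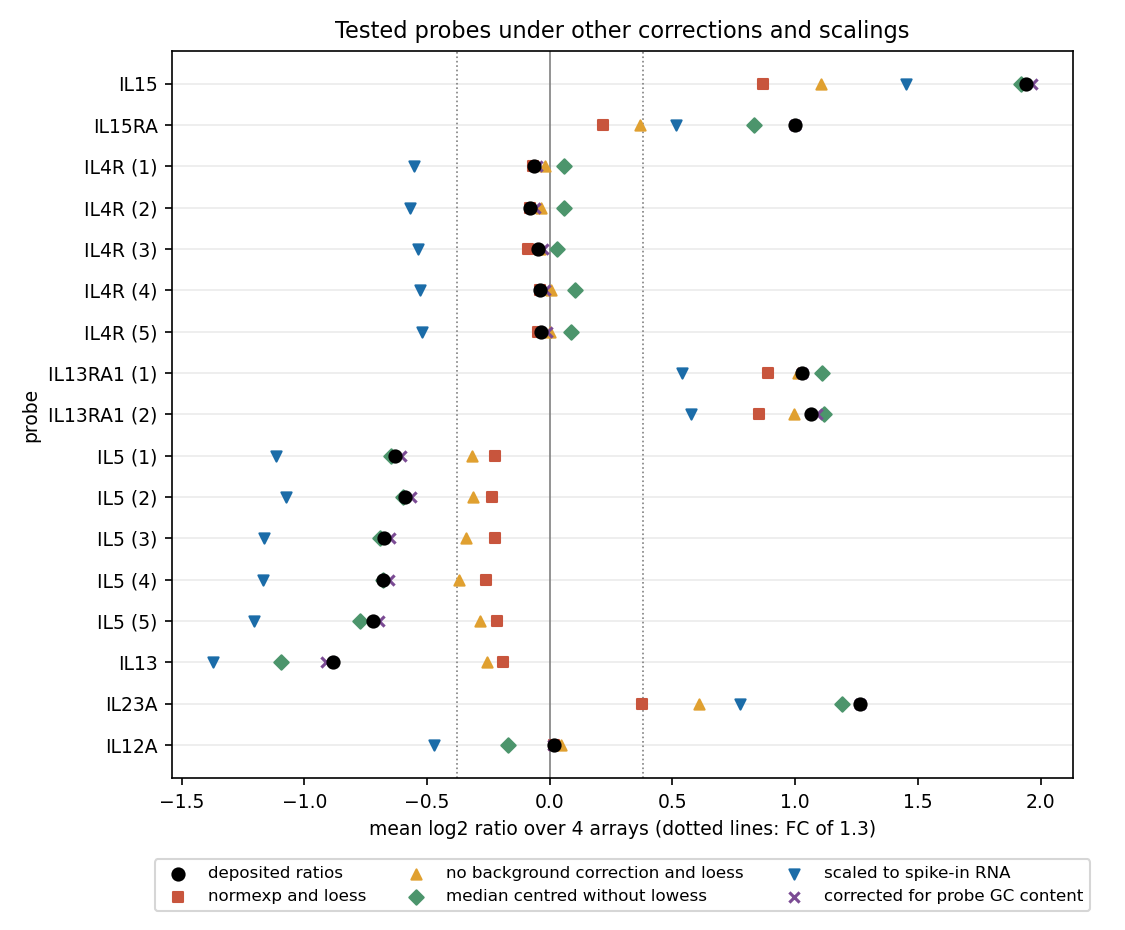
Mean log2 ratio of the 17 tested probes (y axis) from the deposited ratios and under 5 other background corrections or scalings. IL15 stays right of the FC threshold (dotted lines at FC 1.3) throughout, at 0.87 to 1.96, whereas IL5 and IL13 move inside it with normexp (IL13 at -0.19) and without background correction, and scaling to spike-in RNA moves all probes to lower values, with IL4R at -0.57 to -0.52.

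Other genes of these pathways were followed through 6 lists with 63 genes, of which 49 had a probe. Each gene was read by its brightest tested probe. Only 16 were testable, and 9 were called, 8 higher and 1 lower, against 10.2% called higher and 17.2% called lower among 7767 tested genes. Among the 8 higher, *stat4*, *il13ra2* and *il12rb2* were tested through the HMB-treated channel alone. The median log2 ratio was 0.41 over the 16 and -0.09 over all tested genes. Of the 9 common gamma chain ligands and receptors on the array, among them *il2*, *il2ra*, *il2rb*, *il21*, *tslp* and *il7r*, none was testable, and the common gamma chain gene itself had no probe under its symbol.

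Among the other type 2 receptor genes, *il13ra2*, which encodes a chain that binds IL-13 and is regarded as a decoy, was the only one tested. Its log2 ratios of 1.87, 1.76, 0.16 and 4.34 averaged 2.03 ± 1.73 (adjusted p = 0.0320), with the control channel well above background on 3 arrays. The *il13ra2* probe was thus tested through its HMB-treated channel alone. Array 4 was far above array 3, and the call was lost without replicate 1 (adjusted p = 0.0553) or replicate 2 (adjusted p = 0.0737), and with normexp (adjusted p = 0.0552), no filter on dim probes (0.164), the methods' test (0.171) or treat (0.129). Without replicate 4 the log2 ratio was 1.26. *Il5ra* was at background on all arrays.

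Of the IL-4 and IL-13 response genes, 5 were tested, 2 rose and 1 fell. *Vcam1*, an adhesion molecule for leukocytes that also responds to other inflammatory signals, rose by 5.51 ± 0.18 on the log2 scale (adjusted p = 8.92e-07). *Ccl11*, the eosinophil chemokine eotaxin, rose by 3.41 ± 0.39, on 5 of 5 probes. *Ccl17*, a chemokine for type 2 helper T cells, fell by 1.22 on the log2 scale, with ratios of -1.17, -1.14, -1.25 and -1.33, and a log2 ratio of -0.79 with normexp. These genes thus moved in both directions. *Ccl26* (0.59 ± 0.94) and *postn* (0.37 ± 0.99) were not called, and each was above 0 on arrays 1 and 2 and below 0 on arrays 3 and 4.

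Of the signalling genes behind these receptors, 6 were tested and 3 rose. *Jak2*, a kinase used by the IL-12 and IL-23 receptors, rose by 2.36 ± 0.24, on both of its probes (adjusted p = 1.76e-05). *Stat4*, the transcription factor of IL-12 signalling, had ratios of 3.94, 1.56, 3.81 and 2.53 (2.96 ± 1.13, adjusted p = 0.00172), but its control channel was well above background on 1 array, so that it was tested through the HMB-treated channel alone and its size is uncertain, and the log2 ratio was 0.59 with normexp. *Stat6*, the transcription factor of IL-4 and IL-13 signalling, rose by 0.41 ± 0.22 (adjusted p = 0.0146), a value that turned to -0.08 after scaling to spike-in RNA, and it was not called without replicate 1 (adjusted p = 0.0506) or replicate 2 (adjusted p = 0.0557), nor with normexp (0.21), no background correction (0.28), no filter on dim probes, the methods' test or treat. *Stat5a* (0.26 ± 0.09, below the FC threshold), *jak1* (0.03 ± 0.14) and *cish* (-0.07 ± 0.29), an inhibitor induced by STAT5, were not called.

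In the IL-12, IL-23 and IL-17 list, both tested genes were receptors and both were called higher. *Il12rb2* was tested through its HMB-treated channel alone, with the control channel well above background on 3 of 4 arrays. *Il17rc* had a log2 ratio of 0.65 ± 0.21 (adjusted p = 0.00219), and was not called with normexp (0.17, adjusted p = 0.114), without background correction (0.32), after scaling to spike-in RNA (0.16, adjusted p = 0.222) or with treat. *Il12rb2* had 0.42 ± 0.21 (adjusted p = 0.0124), which turned to -0.07 after scaling to spike-in RNA and was not called without replicate 4 (0.33, below the FC threshold), with normexp (0.104), without background correction (0.17), with median centring (0.26), without the filter on dim probes, or with the methods' test or treat. With both channels required, 6 of 12 testable pathway genes were called, 5 higher and 1 lower. The called genes *stat4*, *il13ra2* and *il12rb2* dropped out. Over the array 5870 of 22653 probes were called, 2546 higher and 3324 lower, a count of probes and not of genes. The receptor gene *il23r* and the cytokine genes *il17a*, *il17f* and *ifng* were at background in both channels on all arrays. In the IL-10 list, *il10rb* (0.25 ± 0.23) and *il22ra1* (0.09 ± 0.31) were tested and not called.

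**Figure D4:**
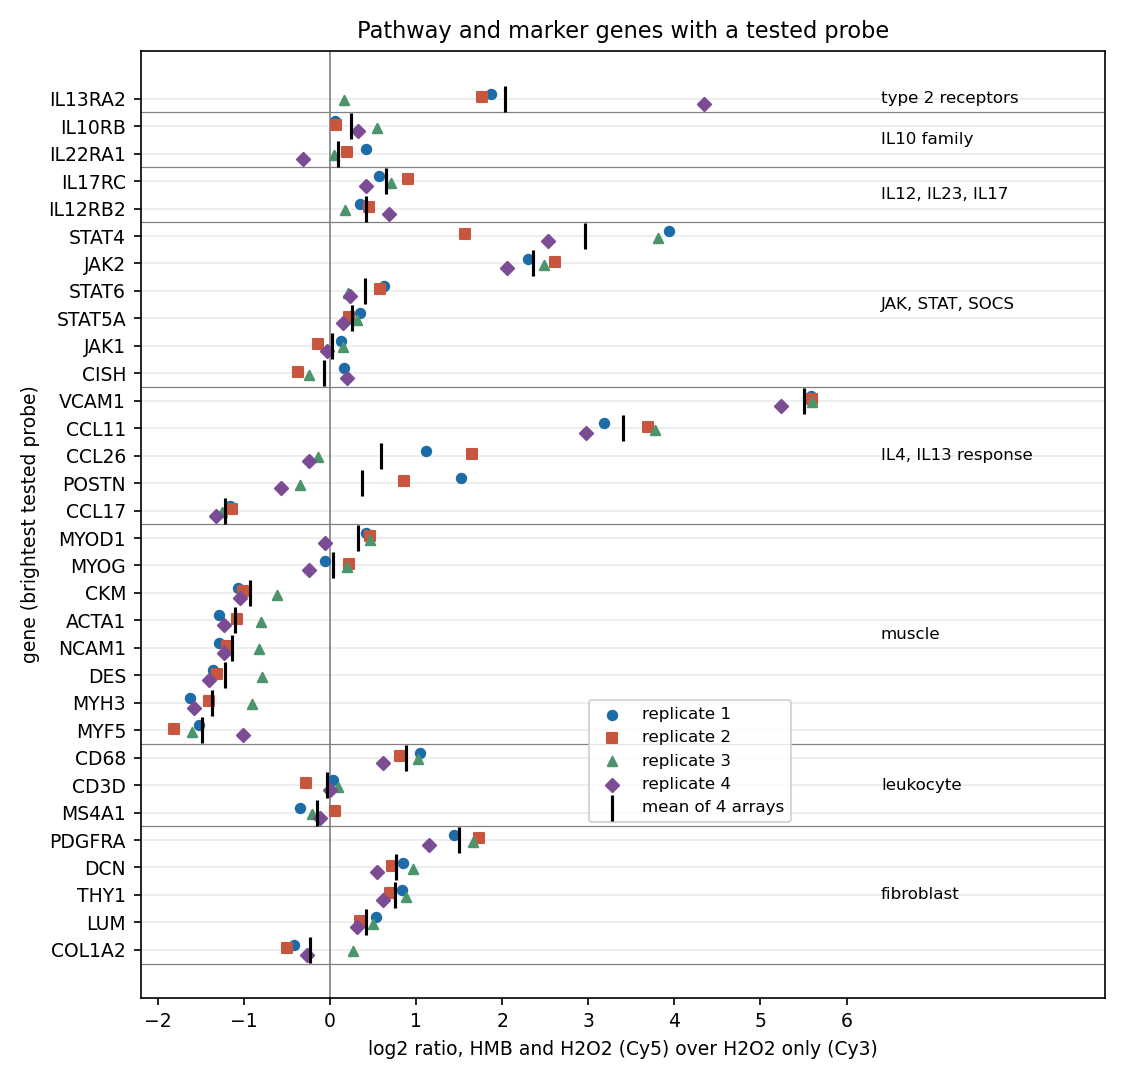
Log2 ratio per array (points) and mean (bar) for the pathway and marker genes with a tested probe, grouped by list on the y axis. VCAM1, CCL11 and JAK2 lie above 2 on every array, IL13RA2 spreads from 0.16 to 4.34, the muscle markers from CKM to MYF5 lie below 0 on every array, and STAT6 and IL12RB2 lie above 0 here but below 0 after scaling to spike-in RNA.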

How the data were processed

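RNA of the HMB-treated group (Cy5) and of the control (Cy3) was compared on 4 Agilent horse arrays with 60-base probes, each array counting as 1 replicate. For the intensity values, the deposited scanner files hold spot brightness and the signal after background subtraction and linear and lowess normalization by the authors. The log10 ratios deposited in these files (Cy5 over Cy3) were written by Feature Extraction, version 10.10.1.1 per the file headers, whereas the methods name an earlier version. The authors' tabulated log10 values differed from these by at most 3.96e-05, on a single array. The log2 ratios were computed here from the deposited log10 ratios. Dim signals were replaced by a surrogate upstream, so the size of the ratios of dim probes is uncertain. For 3 called dim probes the deposited log2 ratio was larger in size than that with normexp. The values were 1.00 against 0.22 for *il15ra*, -0.88 against -0.19 for *il13* and 2.96 against 0.59 for *stat4*. For *il12a*, which was not called, both were 0.02. The deposited ratio was also the larger for every other called member probe and pathway gene, those well above background in both channels included. Examples are *vcam1*, at 5.51 against 3.99, and *il15*, at 1.94 against 0.87. The part of the surrogate in these differences was not tested.

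Control spots and the 13 to 35 spots per array that carried a non-uniformity or population outlier mark were left out, the spots of a probe were averaged, and 0 spots were saturated. Probes needed a ratio on at least 3 arrays. The fit used R 4.3.3 and limma 3.58.1 (intercept, empirical Bayes, two-sided), and was tested on simulated data. The number of arrays limits the precision. Named were every member probe and every called pathway gene, up to 25. One leukocyte marker is not reported here and is left out of the counts. The members, the lists, the thresholds and the alternatives were chosen with earlier results of these data known, and the pairs of partner genes after the values had been seen. The alternatives were normexp (offset 50) or no background correction with loess, median centring, scaling to spike-in RNA, scale normalization and a GC correction. Others were the authors' tabulated values, other filters on dim or marked spots, the methods' t-test, treat, trend with robust moderation, array weights, and leaving out each replicate. The offset is added to both channels, and no correction leaves the background in both. Both settings therefore shrink the ratios of dim probes by construction. A call lost there does not tell whether a change is absent. The authors' tabulated values hold the same ratios as the main analysis and could not give another result.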

Additional observations from a re-analysis of the deposited data

Results flagged for a closer look

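The *vcam1* ratio of replicate 4 (5.23 on the log2 scale) was far from those of the other arrays, which lay between 5.59 and 5.60. It was the 1 such case among 26 sets of 4 ratios examined, and chance marks about 1 set in 20. The gene was called with and without this array.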

How the results depend on the processing

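The arrays could not be split further: every array held both groups in the same dye orientation on 1 slide, and dim signals limited 11 member probes to no test. No paired analysis was possible because the 2 groups share each array and enter as 1 ratio, so the pairing is already in the value. Of 303 values of the member probes under 18 alternatives, 263 kept their direction and their side of the threshold. These include the authors' tabulated values, which are the same ratios and could not differ. Of the other values, 20 lost the call, 5 gained it with the same sign and 15 changed sign. Among the last, *il12a* was called lower after scaling to spike-in RNA. The called probes number 7046 over the array, 11 among members and 9 among pathway genes. With normexp these became 3539, 3 and 5, without background correction 4440 and 4 for the first 2, and with treat 2822, 6 and 5. Scaling to spike-in RNA, which moved the median of all probes by -0.49, to -0.56, gave 18571 calls and all 17 tested member probes, 5 higher and 12 lower. Relative to that median *il15* stood at 2.01, *il4r* at -0.01 to 0.03 and *il5* at -0.65 to -0.52. Of the called probes 42.5% were higher, against 55.0% with normexp, 60.1% without background correction, 51.4% with median centring, 54.6% with treat and 6.71% with spike-in scaling. Without each replicate in turn the counts were 6637 to 7151, 11 to 11 and 7 to 9. The *il4r* signs turned with median centring (0.059, 0.060, 0.028, 0.10 and 0.087 for the 5 probes), for 2 probes without background correction (0.0051 and 0.00037), and for 3 without replicate 4 (ranges without each replicate in turn of -0.16 to 0.0063, -0.13 to 0.016 and -0.12 to 0.014). *Il12a* turned with median centring (-0.17), with spike-in scaling (-0.47) and without replicate 1, 2 or 3 (-0.00015, -0.040 and -0.033, against 0.14 without replicate 4). *Il12rb2* (-0.071) and *stat6* (-0.078) turned with spike-in scaling. The cause of these changes was not tested.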
